A study of Mus musculus with 7 samples.

Results

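The genes of the integrated stress response that center on the transcription factor ATF4 were examined in the livers of mice fed an HFD. The 10 genes, Atf4, Atf5, Ddit3, Atf3, Trib3, Asns, Sesn2, Psat1, Phgdh and Nupr1, were chosen by name as known parts of this program, with earlier results of these data known, by a rule that uses no measured value. They are 10 of the 51426 genes in the deposited count tables, and 9 of them passed the filter on low counts, together with 14754 genes in all. Liver RNA of 3 WT mice and 4 whole body TET1 KO mice was sequenced, 1 library per mouse. All mice are labelled as male C57BL/6J and were fed an HFD for 16 weeks, which the study started at 8 weeks of age, so both genotypes share the diet and no chow-fed liver is among these samples. The knockout removes TET1 from every cell type and not from hepatocytes alone. The study describes the sequenced livers as TET1-/- against TET1wt/wt and bought heterozygous B6;129S4-Tet1tm1.1Jae/J mice, but it made whole body knockouts in a pair of ways, and the labels give C57BL/6J for every mouse and name neither the allele nor the litters. Whether the genotypes share the same genetic background beyond that label was not tested. The study describes littermate controls for its TET1 KO mice, and the labels describe the replicates only as separate samples of a genotype.

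The integrated stress response starts when a stress-sensing kinase phosphorylates the initiation factor eIF2α. Most translation then slows, while the ATF4 mRNA, whose upstream reading frames normally block its own coding frame, is translated more. ATF4 pairs with C/EBP proteins and switches on genes for amino acid synthesis, amino acid import, tRNA charging and, under lasting stress, the factor CHOP. In the liver this program is known for its answer to amino acid shortage, to stress of the endoplasmic reticulum and to mitochondrial stress. ATF4 is controlled mostly at translation, so its mRNA level is not a measure of its protein, and the counts here are of mRNA only.

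Library sizes lay between 15005277 and 22746138 counts and overlapped between genotypes. Hepatocyte markers had summed levels of 63630 to 83005 CPM in WT livers and 78216 to 85448 CPM in TET1 KO livers, over the 6 of 7 markers found, where CPM is the TMM-scaled count per 1e6 counts. Tet1, the targeted gene, had 1, 4 and 1 counts in WT livers and 2, 1, 4 and 1 counts in TET1 KO livers, too few to check the genotype labels. By edgeR's quasi-likelihood test with Benjamini-Hochberg adjustment, TET1 KO livers had higher levels of 129 tested genes (0.874%) and lower levels of 169 (1.15%) at the limit of 0.05 on the adjusted p. Scaling to library size alone moved this split to 107 higher and 312 lower.

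The short element that ATF4 binds together with a C/EBP protein was looked for in the promoters of the 10 genes, because it is the DNA element through which ATF4 is known to act on many of its targets. The composite element TGATGNAA was searched on both strands in RefSeq windows of build GRCm38.p6 that run from 250 bases before each annotated start to 50 bases after it. All 10 genes matched, with 12 windows, since Atf5 and Psat1 have a pair of starts each. The element was found in 4 genes, Atf3, Trib3, Asns and Nupr1, which is 4 of the 12 windows, while 3.97% of the 32851 windows of this length hold it. The 30 bases around each match are printed 5′ to 3′ on the gene's own strand, with the match in capitals.
Atf3, chr1:191183425-191183454, minus strand: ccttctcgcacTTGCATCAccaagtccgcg
Nupr1, chr7:126625562-126625591, minus strand: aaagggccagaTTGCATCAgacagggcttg
Asns, chr6:7693214-7693243, minus strand: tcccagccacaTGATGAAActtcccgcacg
Trib3, chr2:152344028-152344057, minus strand: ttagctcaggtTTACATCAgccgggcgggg

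Atf3 and Nupr1 carry the same 8 letters, TTGCATCA, which is the element read from the other strand and which 0.895% of all windows hold. In both genes the match begins 110 bases before the start site. In Asns the match begins 23 bases before the start, and in Trib3 it lies 14 bases after it, in the transcribed part. The cAMP response element TGACGTCA was in no window of the 10 genes and in 1.79% of all windows. The box CCAAT, a general promoter element, was in windows of 7 of the 10 genes, which is 7 of the 12 windows, and in 37.4% of all windows. These are matches of letters and not measured binding, and elements outside the windows were not searched.

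**Figure D1:**
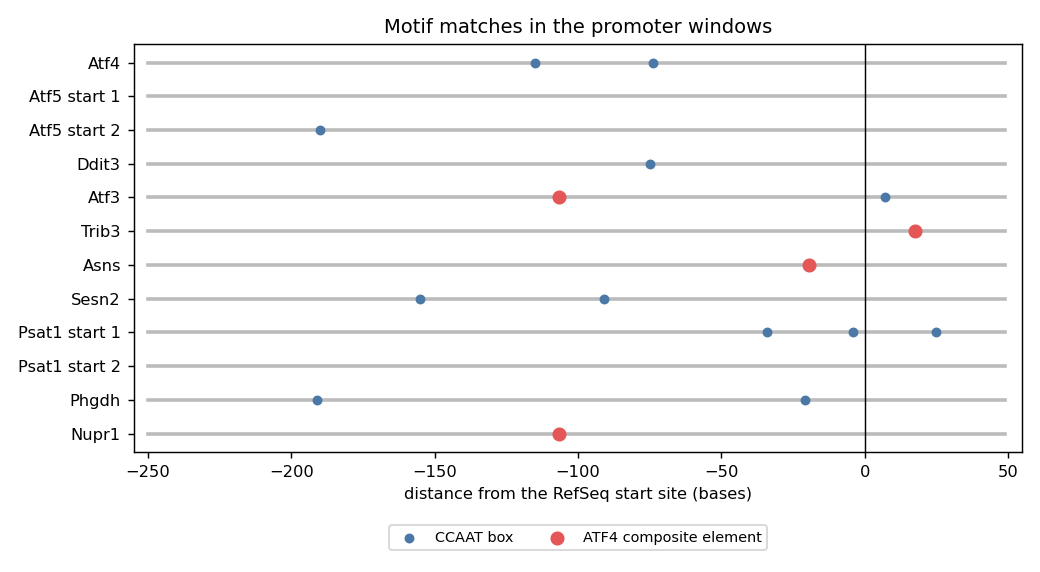
Positions of the ATF4 composite element (large red points) and of CCAAT boxes (small blue points) in the promoter windows of the 10 genes, by distance from the RefSeq start site in bases (0 is the start). The element is in Atf3 and Nupr1 at the same distance, 110 bases before the start, and in Asns and Trib3 near the start.

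The 250 bases before the Nupr1 start are shown whole, since Nupr1 is a gene of the group with one of its 2 smallest p-values and holds the exact element (chr7:126625471-126625720, minus strand, element in capitals).
Nupr1: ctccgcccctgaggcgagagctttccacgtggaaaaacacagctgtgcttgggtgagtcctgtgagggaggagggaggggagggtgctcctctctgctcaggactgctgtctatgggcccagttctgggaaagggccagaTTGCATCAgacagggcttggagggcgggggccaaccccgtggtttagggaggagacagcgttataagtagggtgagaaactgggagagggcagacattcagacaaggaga

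To see whether the loss of TET1 moved this program in HFD livers, the 10 genes were compared between the genotypes. By edgeR, 0 of the 9 tested genes passed the adjusted p of 0.05 in either direction. Atf5 and Nupr1 came closest, both with less mRNA in TET1 KO livers, and they are the 2 genes with an unadjusted p under 0.05, where 12.7% of all tested genes were lower at that limit. Both were also lower when the adjusted p was allowed up to 0.1 (5.59% of all tested genes) and by DESeq2 at 0.05 (4.58% of the genes it tested). Atf4 itself differed by little. The median log2 fold change of the 9 genes was -0.095, with 3 above and 6 below 0, beside 0.012 for all tested genes. Log2 fold changes are of TET1 KO over WT and are given with their standard error (SE) from the edgeR fit.

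Atf4 (chromosome 15, 80255184 to 80257545 of GRCm38.p6, plus strand), the regulator at the center of the program, was at 97.1, 68.7 and 97.5 CPM in WT livers and at 112, 90.2, 92.8 and 82.3 CPM in TET1 KO livers. The groups overlapped, and both the highest and the lowest liver lay outside the range of the other genotype. On the log2 scale TET1 KO livers differed from WT by 0.10 ± 0.16 (SE, edgeR adjusted p = 0.708), with a 95% interval from -0.25 to 0.46. In folds the interval runs from 0.839 to 1.37. All 95% intervals given here come from the fit for a single gene and are not adjusted for the number of genes. Without WT replicate 2, the lowest liver, the log2 fold change of Atf4 was -0.054.

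Atf5 (chromosome 7, 44812256 to 44816658, minus strand) encodes a bZIP factor related to ATF4 that is abundant in the liver and, like ATF4, is translated more when eIF2α is phosphorylated. It was at 378, 329 and 335 CPM in WT livers and at 133, 270, 241 and 232 CPM in TET1 KO livers. The highest TET1 KO liver was still under the lowest WT liver, which held for 10.8% of all tested genes, and TET1 KO replicate 1 was far below the other livers. The TET1 KO mean was 219 ± 59.6 CPM (SD, n = 4) and the WT mean 347 ± 26.7 CPM (SD, n = 3). This is a 0.631-fold level, -0.66 ± 0.21 in log2 (SE, edgeR adjusted p = 0.0956), with a 95% interval from 0.456 to 0.872. DESeq2 gave an adjusted p of 0.0313, and over all alternatives the log2 fold change stayed between -0.80 and -0.49 with an adjusted p between 0.0313 and 0.291. Without TET1 KO replicate 1 it was -0.49 (edgeR adjusted p = 0.0922). The annotated span of Atf5 overlaps Nup62 and Il4i1b. Nup62 had a log2 fold change of -0.39 (edgeR adjusted p = 0.236), no value was matched to Il4i1b, and how the counting treated reads in such overlaps or their strand is not given in the sources used here.

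Nupr1 (chromosome 7, 126623246 to 126625470, minus strand), a small chromatin-associated stress protein induced by ATF4, was at 7.83, 4.64 and 6.46 CPM in WT livers and at 2.63, 5.07, 2.61 and 3.66 CPM in TET1 KO livers. The groups overlapped through WT replicate 2 and TET1 KO replicate 2, while the other 3 TET1 KO livers lay below all WT livers. In log2 the difference was -0.86 ± 0.27 (SE, edgeR adjusted p = 0.0948), with a 95% interval from -1.46 to -0.26. In DESeq2 the adjusted p was 0.0482, and over all alternatives the log2 fold change lay between -1.09 and -0.68 with adjusted p-values between 0.0482 and 0.216. The span of Nupr1 overlaps that of Gm39087, which was not matched in the tables.

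**Figure D2:**
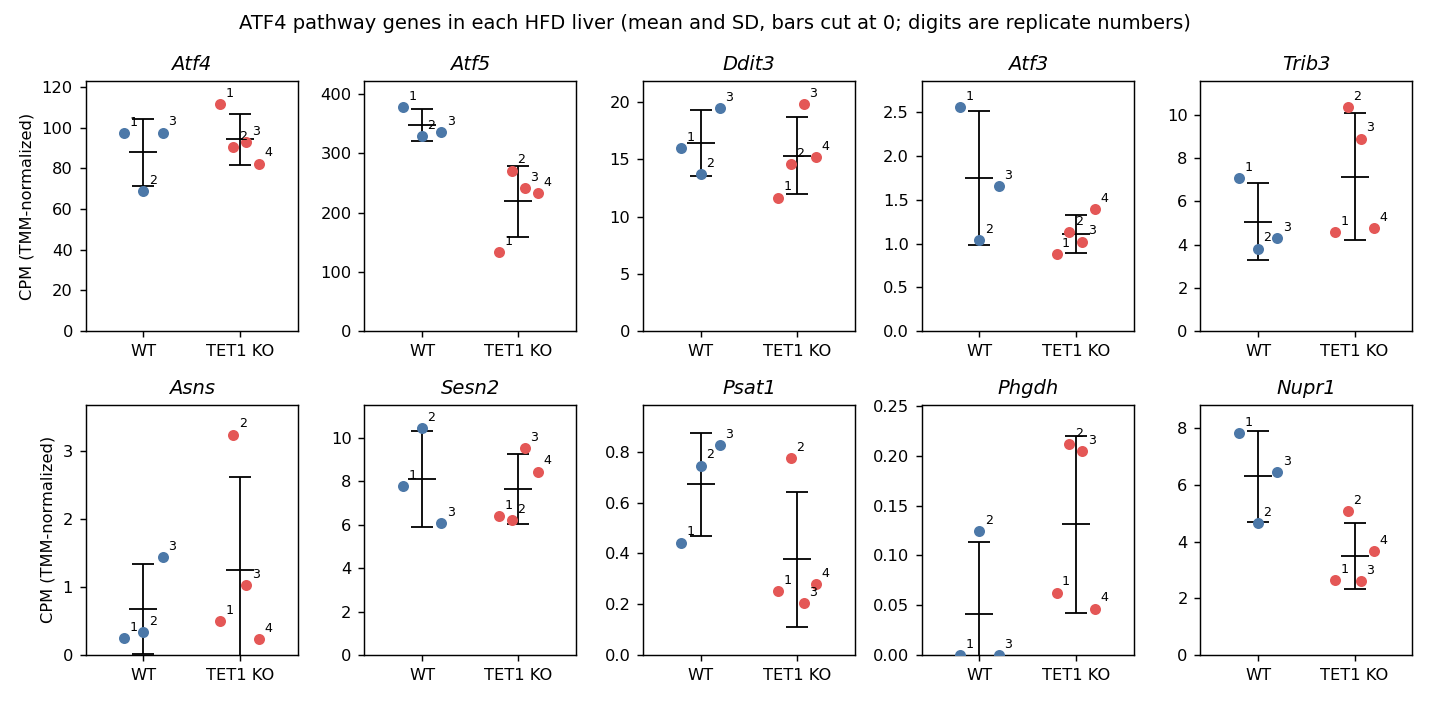
TMM-normalized level in CPM (linear axis from 0, a scale of its own in each panel) of the 10 genes in the 3 WT livers (blue) and the 4 TET1 KO livers (red), with the mean and SD as black bars and the replicate number beside each point. In Atf5 all TET1 KO livers, at 133 to 270 CPM, sit below all WT livers, at 329 to 378 CPM, and in the other 9 genes the groups overlap.

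Ddit3 and Atf3, the other bZIP factors of the group, did not pass the test. Ddit3 (chromosome 10, 127290793 to 127296291, plus strand) encodes CHOP, which acts late in stress and is linked to cell death. Its levels were 16.0, 13.7 and 19.4 CPM in WT livers and 11.6, 14.6, 19.8 and 15.2 CPM in TET1 KO livers, so the ranges nearly coincided. The log2 fold change of Ddit3 was -0.09 (95% interval -0.52 to 0.33, edgeR adjusted p = 0.777). Ddit3 is the only gene of the group on the chromosome of Tet1, 64.4 Mb away from it, and its span overlaps those of Mbd6 and Mars, whose log2 fold changes were 0.65 for Mbd6 and -0.21 for Mars, at edgeR adjusted p-values of 0.0893 and 0.267.

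Atf3 (chromosome 1, 191170296 to 191183333, minus strand), a stress-induced repressor that is also an early response gene, had few reads, between 14 and 52 counts a liver. It was at 2.56, 1.04 and 1.66 CPM in WT livers and at 0.877, 1.13, 1.02 and 1.39 CPM in TET1 KO livers. The WT livers spread widely here, and WT replicate 2 lay among the TET1 KO livers. TET1 KO against WT gave a log2 value of -0.64 ± 0.35 (SE, 95% interval -1.41 to 0.13, edgeR adjusted p = 0.263) and stayed negative under every alternative, between -0.93 and -0.26.

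Trib3 and Sesn2 encode feedback and signaling proteins downstream of ATF4. Trib3 (chromosome 2, 152337425 to 152344060, minus strand), a pseudokinase that restrains ATF4 and CHOP and binds AKT, was at 7.09, 3.81 and 4.30 CPM in WT livers and at 4.57, 10.4, 8.90 and 4.78 CPM in TET1 KO livers. TET1 KO replicates 2 and 3 were the highest of all livers, while replicates 1 and 4 lay within the WT range. As a log2 fold change this came to 0.49 ± 0.33 (SE, 95% interval -0.23 to 1.22, edgeR adjusted p = 0.351), and with 1 liver left out it lay between 0.25, without TET1 KO replicate 2, and 0.80, without WT replicate 1.

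Sesn2 (chromosome 4, 132492804 to 132510456, minus strand), a leucine sensor that restrains mTORC1, was at 7.78, 10.4 and 6.07 CPM in WT livers and at 6.39, 6.20, 9.51 and 8.44 CPM in TET1 KO livers. Every TET1 KO liver lay within the WT range. Its log2 fold change was -0.08 (95% interval -0.58 to 0.42, edgeR adjusted p = 0.835), and without WT replicate 2 it was 0.14.

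Asns, Psat1 and Phgdh encode enzymes that make non-essential amino acids, and all of them were scarce in these livers. Asns (chromosome 6, 7675165 to 7693209, minus strand), the asparagine synthetase and a classical target of ATF4, had 5, 8 and 26 counts in WT livers and 8, 46, 20 and 5 counts in TET1 KO livers. Its levels ranged from 0.232 to 3.24 CPM, and both genotypes held livers near the bottom of that range. TET1 KO replicate 2 was the highest, at 2.27 on the log2 scale above the WT mean, and WT replicate 3 came next. The log2 fold change of 0.87 ± 0.83 (SE, edgeR adjusted p = 0.520) had a 95% interval from -0.97 to 2.70, that is from 0.511-fold to 6.51-fold, so a difference in either direction was not resolved. Without WT replicate 3 the estimate was 1.96, and without WT replicate 1 it was 0.47. Without TET1 KO replicate 2 or 3 the gene failed the filter on low counts.

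Psat1 (chromosome 19, 15905123 to 15925059, minus strand), the transaminase of serine synthesis, had 9, 18 and 15 counts in WT livers and 4, 11, 4 and 6 counts in TET1 KO livers. At 0.775 CPM, TET1 KO replicate 2 lay within the WT range of 0.443 to 0.828 CPM, and the other TET1 KO livers were at 0.205 to 0.278 CPM. The estimate in log2 was -0.90 ± 0.52 (SE, 95% interval -2.05 to 0.25, edgeR adjusted p = 0.287), and without TET1 KO replicate 2 the gene failed the filter on low counts. Phgdh (chromosome 3, 98313171 to 98339969, minus strand), the first enzyme of serine synthesis, had 0, 3 and 0 counts in WT livers and 1, 3, 4 and 1 counts in TET1 KO livers. It was not tested, and no fold is given for a gene with at most 4 counts in any liver.

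**Figure D3:**
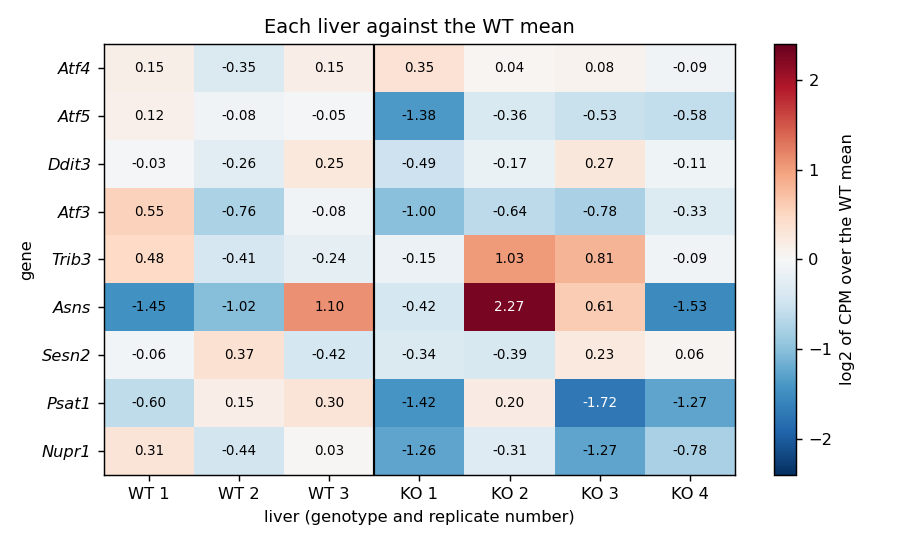
Level of the 9 tested genes in each liver as the log2 of its CPM over the mean of the 3 WT livers, with genes as rows and livers as columns, red above and blue below the WT mean. The genes do not move as a block: Nupr1, Atf5 and Atf3 are below the WT mean in all 4 TET1 KO livers, Trib3 is above it in replicates 2 and 3 only, and Asns runs from -1.53 to 2.27 among the TET1 KO livers.

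The livers did not fall into an order that all genes shared. Of the 9 tested genes, TET1 KO replicate 2 was the highest liver in 2 genes and the lowest in 0, TET1 KO replicate 1 was the highest in 1 and the lowest in 3, and WT replicate 1 was the highest in 3 and the lowest in 0. Adipocyte markers were found mainly in a pair of livers. TET1 KO replicate 2 had 60 counts of Adipoq, 70 of Plin1, 6 of Lep and 95 of Cidea, and WT replicate 2 had 9, 4, 17 and 273. In the other 5 livers Adipoq was at 0 and Plin1 and Lep had at most 1 count each. Over the 4 adipocyte markers the summed level was 16.3 CPM in that liver, 0.0511 to 0.250 CPM in the other TET1 KO livers and 0.938 to 12.6 CPM in WT livers. In WT replicate 1 this sum is Cidea alone, a lipid droplet gene that fatty hepatocytes also express. The summed level of the 6 cholangiocyte markers was higher in all TET1 KO livers, 46.2 to 68.0 CPM, than in WT livers, 29.7 to 37.9 CPM, which came mainly from Spp1 and Sox9. Krt19 and Epcam, the defining markers of that list, had 144 and 105 counts in TET1 KO replicate 4 and at most 33 and 16 counts in the other livers. Epcam, at 0.276 to 0.539 CPM in WT and 0.689 to 4.87 CPM in TET1 KO livers, and Sox9, at 4.15 to 8.06 CPM and 9.46 to 20.9 CPM, did not overlap between the genotypes. Nor did Spp1, at 19.8 to 29.1 CPM and 30.7 to 43.7 CPM. Of all tested genes, 11.7% had every TET1 KO liver above every WT liver. Epcam and Sox9 did not pass edgeR's test (adjusted p = 0.117 and 0.0569) and passed that of DESeq2 (adjusted p = 0.0432 and 0.00294). DESeq2 called 4.16% of all genes it tested higher. Spp1 passed neither (edgeR adjusted p = 0.0859, DESeq2 adjusted p = 0.0551). The sums of the 6 endothelial markers were 143 to 145 CPM in WT and 118 to 141 CPM in TET1 KO livers, nearly touching, and for 0 of the 6 were all TET1 KO livers below all WT livers. Lyve1 of that list had a log2 fold change of -1.08 (edgeR adjusted p = 0.0778, DESeq2 adjusted p = 0.0144). The 6 stellate cell markers overlapped in their sums, 210 to 298 CPM in WT and 193 to 274 CPM in TET1 KO livers, and 1 of them, Rgs5, was lower (log2 fold change -0.67, edgeR adjusted p = 0.0460, beside 1.15% of all tested genes lower), with adjusted p-values up to 0.206 over the alternatives. Neutrophil markers stood at 31.1 CPM in WT replicate 3, against 2.03 and 4.04 CPM in the other WT livers and 1.31 to 8.17 CPM in TET1 KO livers. The summed markers of Kupffer cells, T and NK cells and B cells overlapped between the genotypes. The part of these cells in the levels of the 10 genes was not tested, and in whole liver a change in the number of cells of a type cannot be told apart from a change in RNA per cell.

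**Figure D4:**
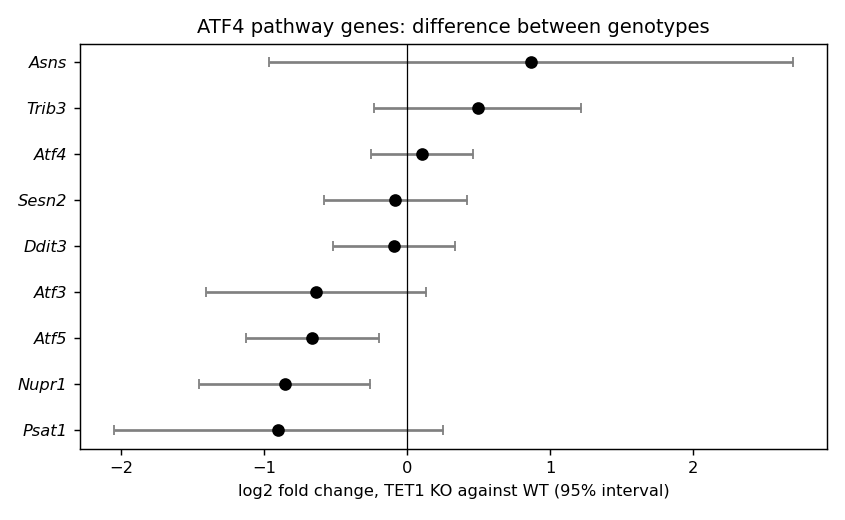
Log2 fold change of TET1 KO against WT livers for the 9 tested genes (points), with the 95% interval of edgeR's fit for each gene alone (bars) and a line at 0. The intervals of Atf5 and Nupr1 lie below 0 although their adjusted p-values are above 0.05, those of the other 7 genes include 0, and that of Asns is the widest.

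Levels of different genes were set side by side per kilobase of exon, with exon lengths from GENCODE M1. That annotation is on an older mouse build than the counts. For Nupr1 its exon length, 2452 bases, exceeds the whole RefSeq span given above, so the level and place of Nupr1 are uncertain. In WT livers Atf5 was the most abundant, at 174 ± 13.4 CPM per kilobase (SD, n = 3), followed by Atf4 at 50.9 ± 9.56 and Ddit3 at 9.56 ± 1.68 CPM per kilobase. Nupr1, Trib3 and Sesn2 followed at 2.57, 2.39 and 2.33 CPM per kilobase, and their ranges over the WT livers overlapped, so their order among themselves is not resolved. Atf3, at 0.882 CPM per kilobase, overlapped Asns at 0.245, which overlapped Psat1 at 0.158, and Phgdh came last at 0.0167 CPM per kilobase. In TET1 KO livers the first 3 places were the same, with Atf5 at 110 ± 29.9 and Atf4 at 54.7 ± 7.19 CPM per kilobase (SD, n = 4), and Nupr1 stood sixth at 1.42 CPM per kilobase with a range that overlapped that of Sesn2.

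Upstream of ATF4, the kinases that phosphorylate eIF2α did not pass the test. Eif2ak3, which encodes PERK, the sensor of the endoplasmic reticulum, was at 9.94, 14.1 and 10.6 CPM in WT livers and at 5.70, 5.71, 6.90 and 9.93 CPM in TET1 KO livers. TET1 KO replicate 4 sat just under the lowest WT liver and the other 3 were clearly lower. Its log2 difference of -0.70 ± 0.22 (SE, edgeR adjusted p = 0.0949) became -0.92 without TET1 KO replicate 4, where it passed the test (edgeR adjusted p = 0.0343). Eif2ak1, Eif2ak2 and Eif2ak4, which encode the heme-regulated, double-stranded RNA and amino acid sensing kinases, had log2 fold changes of -0.29, -0.03 and -0.23 (edgeR adjusted p from 0.232 to 0.919). For Oma1, the mitochondrial protease that relays stress to the heme-regulated kinase, the value was -0.55 (edgeR adjusted p = 0.115). Of the 9 genes in this list 0 were called in either direction, 3 were lower at an unadjusted p under 0.05 (12.7% of all tested genes) and 0 were called by DESeq2. At that limit 13.6% of all tested genes were higher, and the counts at an unadjusted p in the other lists are to be read beside these shares. In 4 of the 9 genes all TET1 KO livers were under all WT livers (10.8% of all tested genes). In 0 of them were they above (11.7% of all tested genes).

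The list of eIF2, its exchange factor and its phosphatase held 10 tested genes, of which 0 were called by edgeR or DESeq2. At an unadjusted p under 0.05, 1 was higher and 1 was lower, namely Eif2s2 and Eif2s1, the β and α subunits of eIF2, with log2 fold changes of 0.39 and -0.34 (edgeR adjusted p = 0.181 and 0.136). Ppp1r15a, which encodes the inducible phosphatase subunit that ends the response, was at 9.80 ± 0.983 CPM (SD, n = 3) in WT and 9.72 ± 2.62 CPM (SD, n = 4) in TET1 KO livers. Among 9 tested bZIP partners of ATF4, 0 were called by edgeR and 1, Jun, by DESeq2, while 1 was higher and 2 were lower at an unadjusted p under 0.05. Jun had a log2 fold change of -0.60 (edgeR adjusted p = 0.0888, DESeq2 adjusted p = 0.0428) and Nfe2l2, which encodes NRF2, of -0.39 (edgeR adjusted p = 0.130).

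Downstream, 55 further genes known as targets of ATF4 or CHOP, or as paralogs and neighbors of the 10 genes in their pathways, were counted in 4 lists, and 51 were tested. Of these, 3 were lower and 0 were higher by edgeR at an adjusted p under 0.05, beside 1.15% lower and 0.874% higher of all tested genes. The median log2 fold change was -0.21, with 13 genes above 0 and 38 below, while over all tested genes 7543 were above and 7211 below. In 12 of the 51 genes all TET1 KO livers were under all WT livers, and in 2 they were above, where 10.8% of all tested genes were below and 11.7% above in this sense. These lists were written with results of these data known, so the counts are a description.

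Slc1a4, which encodes the ASCT1 carrier of alanine, serine and cysteine, was at 10.6, 11.7 and 10.2 CPM in WT livers and at 2.505, 4.79, 4.19 and 4.13 CPM in TET1 KO livers. The groups were far apart, with the highest TET1 KO liver under the lowest WT liver. It was lower by a log2 fold change of -1.47 ± 0.21 (SE, edgeR adjusted p = 0.00969), and without WT replicate 2 the adjusted p was 0.0665 at a log2 fold change of -1.42. Among the 8 tested amino acid carriers it was the only call. Its relative Slc1a5, the glutamine carrier ASCT2, had a log2 fold change of 0.71 (edgeR adjusted p = 0.188), with levels of 1.88 to 3.69 CPM in WT and 2.88 to 5.82 CPM in TET1 KO livers. The cystine carrier Slc7a11 had at most 5 counts in a liver and was not tested.

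Of 13 genes for charging and export of tRNA, 12 had a log2 fold change below 0 and the median was -0.21. Tars, the threonyl-tRNA synthetase, was at 69.2, 107 and 97.7 CPM in WT livers and at 57.7, 54.1, 54.6 and 52.8 CPM in TET1 KO livers. Tars was lower by -0.74 ± 0.15 in log2 (SE, edgeR adjusted p = 0.0382). The adjusted p passed 0.05 on leaving out WT replicate 2 or 3 or TET1 KO replicate 1, 2 or 3, with 0.170 the highest, without WT replicate 2. Lars, the leucyl-tRNA synthetase, had the next smallest p of this list, with a log2 fold change of -0.55 (edgeR adjusted p = 0.0721, DESeq2 adjusted p = 0.0231), and its groups did not overlap. For the other 11 genes the log2 fold change lay within the range of -0.61 to 0.24, and they did not pass the test.

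In serine, glycine, proline and one-carbon metabolism 0 of 12 tested genes were called by edgeR, 1 was lower at an unadjusted p under 0.05 and 1 was lower in DESeq2. That gene was Mthfd1l, a mitochondrial enzyme that makes formate, at 2.26, 3.23 and 1.71 CPM in WT livers and at 1.44, 0.634, 0.460 and 1.02 CPM in TET1 KO livers (log2 fold change -1.45, edgeR adjusted p = 0.0678, DESeq2 adjusted p = 0.0236). Cbs, which starts transsulfuration, had a log2 fold change of -0.38 (edgeR adjusted p = 0.209).

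Among the other targets, 1 of 18 was called, Vldlr, the VLDL receptor, at 8.71 ± 2.79 CPM (SD, n = 3) in WT and 3.73 ± 1.00 CPM (SD, n = 4) in TET1 KO livers (log2 fold change -1.23, edgeR adjusted p = 0.0472), and the adjusted p rose over 0.05 without WT replicate 1 or 2 or TET1 KO replicate 1, 2 or 3, up to 0.227 without WT replicate 2, and to 0.0504 with a minimum of 10 counts per library. DESeq2 called 3 genes of this list lower and 1 higher, beside 4.58% and 4.16% of all genes it tested. Of the secreted stress hormones, Fgf21 was at 8.96, 3.36 and 3.81 CPM in WT livers and at 2.69, 1.06, 1.18 and 1.99 CPM in TET1 KO livers, which did not overlap (log2 fold change -1.63, edgeR adjusted p = 0.0616). Fgf21 passed the test in DESeq2 (adjusted p = 0.00457). In edgeR it passed with no filter on low counts (adjusted p = 0.0296) and with the replicate number as a block (adjusted p = 0.0135). Without WT replicate 1, the highest liver, its log2 fold change was -1.05 (edgeR adjusted p = 0.102), and with any 1 liver left out the adjusted p lay between 0.0526 and 0.144. Gdf15 was at 23.5, 7.09 and 7.51 CPM in WT livers and at 1.50, 11.8, 11.05 and 6.03 CPM in TET1 KO livers, and here the overlap was broad. For Gdf15 the log2 fold change was -0.74 ± 0.57 (SE, edgeR adjusted p = 0.420), and without WT replicate 1 it was 0.048.

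**Figure D5:**
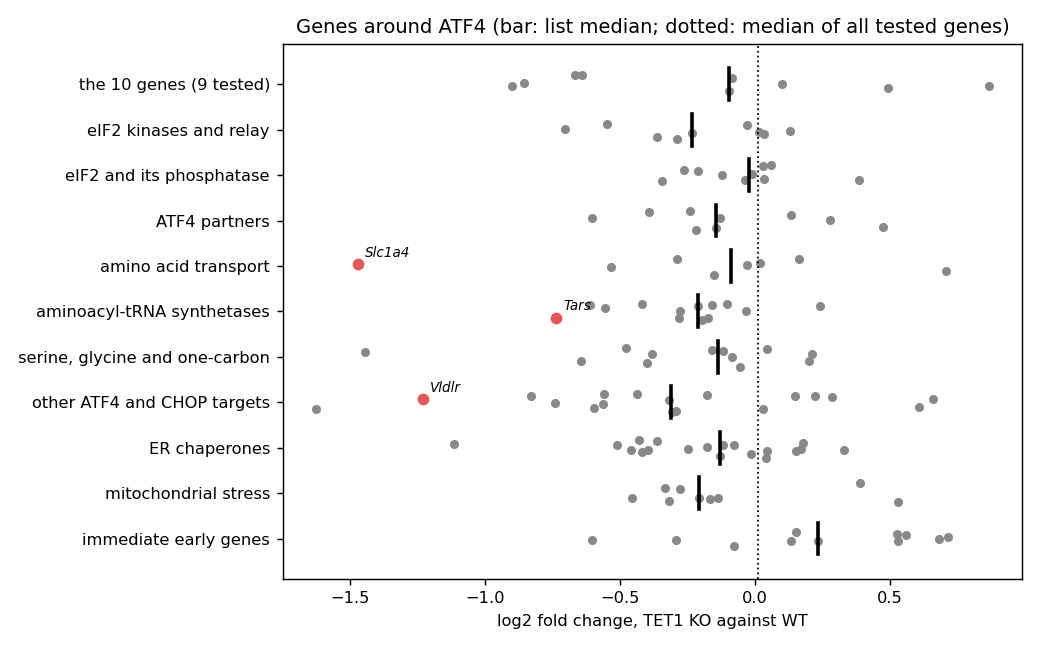
Log2 fold change of TET1 KO against WT livers for every tested gene of the 10 genes and of 10 lists around ATF4, with 1 gray point per gene, red points and names for genes with an edgeR adjusted p under 0.05, black bars at list medians and a dotted line at the median of all tested genes (0.012). The called genes are Slc1a4, Tars and Vldlr, all to the left of 0, and the median of the immediate early genes (0.23) lies to the right while the other medians lie to the left.

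The neighboring stress programs were compared by their counts. Of 19 genes of the other arms of the unfolded protein response, 0 were called by edgeR, 4 were lower at an unadjusted p under 0.05 (12.7% of all tested genes), and the median log2 fold change was -0.13. Dnajb9, a chaperone cofactor induced by the IRE1 arm, had a log2 fold change of -1.11 (edgeR adjusted p = 0.0885, DESeq2 adjusted p = 0.0151) with overlapping groups, and Atf6 one of -0.43 (edgeR adjusted p = 0.121). Of 9 mitochondrial chaperone and protease genes 0 were called, while 2 were higher and 2 lower at an unadjusted p under 0.05, with a median of -0.21. Clpp and Hspe1 stood above 0 with every TET1 KO liver over every WT liver, as in 11.7% of all tested genes (log2 fold changes 0.53 and 0.39, edgeR adjusted p = 0.0811 and 0.0990). In 2 other genes of this list every TET1 KO liver was under every WT liver, as in 10.8% of all tested genes. DESeq2 called 1 gene lower in the first list, Dnajb9, and 1 higher in the second, Clpp. Among 11 tested immediate early genes, which respond to the handling of tissue and to which Atf3 also belongs, 0 were called by edgeR, 1 was higher and 1 was lower at an unadjusted p under 0.05, DESeq2 called 1 lower, Jun, and the median was 0.23. Ier2 was at 15.5 to 22.7 CPM in WT and 24.4 to 49.03 CPM in TET1 KO livers (edgeR adjusted p = 0.112). No test of a difference between these lists was made.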

How the data were processed

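RNA-seq tables of 7 HFD livers (WT, n = 3, TET1 KO, n = 4) were analysed, grouped by the sample titles. The authors deposited raw read counts per Ensembl gene, not normalized. Per the labels, reads were trimmed with Trimmomatic 0.36, aligned with GSNAP and counted with featureCounts 1.5.3 on GRCm38. The annotation release, strand setting and treatment of shared reads are not given in the sources used here, so overlapping and duplicated genes are uncertain. Tables were joined by identifier, and 5 repeated entries with equal counts were left out. Counts were fitted over all genes in R 4.3.3 with edgeR 4.0.16 (filterByExpr, TMM, glmQLFit with legacy = FALSE and robust = FALSE), and p-values were adjusted by Benjamini-Hochberg over 14754 genes. Each SE is the absolute log2 fold change over the root of F. A gene was called at an adjusted p under 0.05. DESeq2 1.42.0 was an alternative. On counts simulated for this comparison over 14754 genes, edgeR recovered 99 of 100 genes changed by 2 and 56 of 100 changed by 1 on the log2 scale, with 8 false calls, and DESeq2 recovered 97 and 58 with 17 false calls. The changed genes were drawn from those with a mean over 1 CPM, so this recovery does not cover scarcer genes such as Psat1. The counts were simulated from the fitted dispersion, without the further spread of single genes. No pair of libraries of 1 genotype was a single library deposited again (chi-square of their counts at least 25.0 per degree of freedom). No library carries a batch or date. The p-values weigh the difference between genotypes against the spread between livers of a genotype. They do not cover a batch or litter that differs with genotype. Gene positions and promoters are from RefSeq on GRCm38.p6. The 10 genes and all lists were chosen with earlier results of these data known. Named in the text are the 10 genes, the eIF2α kinases, Ppp1r15a, Fgf21, Gdf15, called genes of each list and, where fewer than 2 were called, the 2 with the smallest p. Nup62, Mbd6, Mars, Il4i1b, Gm39087, Slc7a11, Apoa1, Rgs5, Lyve1, Adipoq, Plin1, Lep, Cidea, Spp1, Sox9, Krt19 and Epcam were named after their values were seen. The hepatocyte marker Tf was not matched to a symbol. The alternatives were DESeq2, RLE size factors, library size only, no low-count filter, a minimum of 10 counts per library, a robust fit, replicate numbers as a block, the looser limit of 0.1, leaving out each liver, and the 8-letter motif. Plots used matplotlib 3.10.9 (Python 3.11).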

Additional observations from a re-analysis of the deposited data

Results flagged for a closer look

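In the 4 TET1 KO livers, 34 genes were examined for a single liver far from the other 3, of which chance gives about 1.7. The gap to the nearest liver as a share of the range was over Dixon's 95% critical value for 4 genes. It was 0.871 for Psat1, where TET1 KO replicate 2 stood above the others. For Lars and Cbs, at 0.877 and 0.839, TET1 KO replicate 1 stood below the others, and for Ier2, at 0.887, the same liver stood above them. Genes of 1 liver are not independent.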

How the results depend on the processing

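No gene of the 10 was called higher under any alternative. The count called lower was 0 in edgeR and 2, Atf5 and Nupr1, in DESeq2 or at an adjusted p under 0.1, and it stayed at 0 with each liver left out. In the 7 lists of the pathway, with 79 tested genes, edgeR called 3 genes lower and 0 higher. DESeq2 gave 8 lower and 1 higher (4.58% and 4.16% of all genes it tested), an adjusted p under 0.1 gave 9 lower and 1 higher (5.59% and 5.7% of all tested genes), and no filter on low counts gave 5 lower. With 1 liver left out the count called lower ran from 0, without WT replicate 2, to 5, without TET1 KO replicate 4, and was 1 without TET1 KO replicate 1, 2 or 3. The replicate number as a block gave 10 lower and 1 higher in these lists, 0 of the 10 genes, and 1327 calls over all genes in place of 298. Deviations of same-numbered livers from their genotype means correlated at r = 0.209, -0.123 and -0.0964 for numbers 1 to 3. Livers with different numbers gave r from -0.300 to 0.311. So few pairs cannot decide whether the numbers pair the livers. Over all genes DESeq2 called 626 higher and 689 lower, no filter gave 245 and 347, and leaving out a liver gave 16 to 427 higher and 21 to 464 lower. Of 121 alternative fold changes of the tested genes among the 10, 115 kept direction and side of the threshold, 2 passed it and 4 turned. With 1 liver left out, the log2 fold change that turned ran from -0.054 (without WT replicate 2) to 0.17 for Atf4, from -0.26 to 0.025 (without WT replicate 3) for Ddit3 and from -0.27 to 0.14 (without WT replicate 2) for Sesn2. Among the other named genes it ran from -0.17 to 0.082 (without WT replicate 2) for Eif2ak2, from -0.18 to 0.11 (without TET1 KO replicate 2) for Ppp1r15a and from -1.04 to 0.048 (without WT replicate 1) for Gdf15. The cause was not tested. The stricter 8-letter element was in 2 of the 10 genes in place of 4. Asns, Psat1 and Atf3 had 52 counts or fewer in every liver, and the part of depth in the width of their intervals was not tested. Phgdh had too few counts to pass the filter.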
